A study of Mus musculus with 16 samples.

Results

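Collagens are the main structural proteins of the extracellular matrix. Their chains wind into helical trimers, and the chain composition sets the type: fibrillar collagens build tensile fibres of the stroma, type IV collagen builds the sheet-like network of basement membranes, and the remaining families link, coat or anchor these structures. In the mammary gland, fibroblasts and adipocytes of the fat pad lie in fibrillar collagen, and each duct and alveolus is wrapped in a basement membrane. All 44 genes of the deposited expression table whose symbol has the form Col, number, a, number were taken, of 24187 rows in all. By textbook family they were 11 fibrillar chains, 8 basement membrane chains (type IV with the basement membrane associated types XV and XVIII) and 25 others.

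The RNA came from mammary glands of C57BL/6 mice at day 13 of pregnancy, with 4 wild-type libraries and 3 libraries of Socs2-Δs, a mutant line made by CRISPR/Cas9 editing. Both groups carry the same strain label and received no treatment named in the labels. Wild-type mice were bought from a breeder, so source and genotype cannot be told apart, and the sources do not say how many founders the line has or whether a library is 1 animal. P-values therefore measure only the spread between these samples. Values are FPKM (fragments scaled to transcript length and by a factor for each library), a level per length. This allows for transcript length when chains are set beside each other within a library. Other technical effects on a ratio of chains were not tested. The library factor did not follow the reads recovered from the values. Wild-type replicate 3 had the most reads, yet a read there was worth 1.20 times a read of wild-type replicate 1.

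Recovered depth was 21.3 to 24.5 M reads (M, 1e6) per library. Wild-type replicates 3 and 4 lay far from the remaining 5 libraries. On the first principal component of all genes, with 61.6% of the variance, they lay at 57.1 and 77.9 and the others at -37.7 to -15.8. The nuclear RNA Neat1 measured 11.4 and 14.8 FPKM in these 2 libraries and 442 to 586 FPKM elsewhere. Their summed levels of 8 liver markers were 473 and 1729 FPKM, against 43.2 to 340 elsewhere, and those of 8 salivary gland markers 516 and 265 FPKM, against 45.4 to 87.4. Elsewhere Cyp2e1 was the largest part of the liver sum and Amy1 of the salivary sum. Cyp2e1 and Bhlha15 were not raised in these 2 libraries, while every other member found was higher in both. Alb, for example, measured 80.9 and 1137 FPKM there and 2.70 to 6.15 FPKM elsewhere. For the 3 mutant RNA libraries the tag for genotype says wild type while title and source name say mutant, and they were grouped by title. Socs2 itself averaged 22.2 ± 4.28 FPKM (SD, n = 4) in the wild type against 15.7 ± 1.6 FPKM (SD, n = 3) in the mutant. The groups overlapped, with 16.1 FPKM in wild-type replicate 4 and 17.1 FPKM in mutant replicate 1 (limma adjusted p = 0.267). The level of Socs2 therefore does not settle the grouping. Comparisons use all 7 libraries unless wild-type replicates 1 and 2 are named as the only controls.

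Averaged over 7 libraries, 30 of the 44 collagens reached 1 FPKM or more, 8 fibrillar, 6 basement membrane and 16 others. These 30 were tested in a fit of all 13392 genes that reached that level. Of the 30, 5 had a mean of at least 100 FPKM, 14 lay from 10 to 100 FPKM and 11 from 1 to 10 FPKM. Summed over all 44, collagens held 0.218 to 0.729% of the total FPKM in wild type and 0.297 to 0.514% in the mutant, so the ranges overlapped. Col1a1, Col1a2 and Col3a1 together held 58.4 to 72.5% of the collagen FPKM in wild type and 59.6 to 63.7% in mutant glands.

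**Figure D1:**
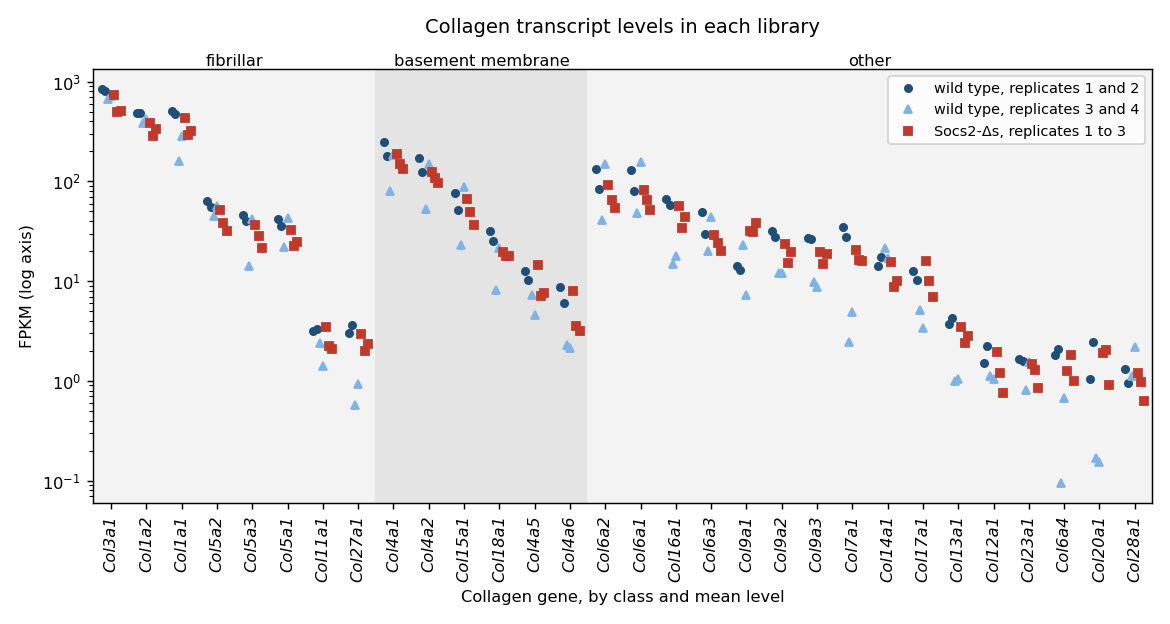
FPKM on a log axis of the 30 tested collagens (x axis, by class and falling mean), 1 point per library; dark circles are wild-type replicates 1 and 2, light triangles wild-type replicates 3 and 4, squares the 3 Socs2-Δs libraries. Col3a1 is highest with a mean of 684 FPKM, Col9a1 is the gene whose squares all lie above the wild-type points, and the triangles fall far below the rest for Col7a1, Col16a1 and Col20a1.

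With all 7 libraries, 0 of the 30 collagens passed in either direction (limma, Benjamini-Hochberg adjusted p under 0.05). Over all genes tested 6 passed, or 0.0448%, all of them higher in the mutant. Before adjustment, limma put 1 higher collagen, Col9a1, and 1 lower collagen, Col14a1, under 0.05, against 18.1% of all genes in either direction. A fit of the recovered reads with voom called 0 collagens and 0.00747% of all genes. With array weights, which count wild-type replicates 3 and 4 least, 2 collagens passed, Col9a1 higher and Col1a2 lower, against 10.2% of all genes. The median log2 difference, mutant minus wild type on log2(FPKM + 1), was -0.29 for fibrillar, -0.055 for basement membrane and 0.076 for other collagens, beside -0.0044 over all genes tested. Leaving out 1 library at a time, these medians ran from -0.48 to -0.15, from -0.40 to 0.16 and from -0.12 to 0.32, so the sign of the basement membrane and other medians was not stable. The lowest of each came without wild-type replicate 3, and the highest without mutant replicate 3 for fibrillar and without wild-type replicate 1 for basement membrane and other collagens. Of the 30, 16 lay below 0, against 50.4% of all genes. The groups did not overlap in 1 collagen, Col9a1, where the mutant libraries were higher, and in 0 collagens where they were lower. Over all genes these shares were 12.5% and 10%.

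Against wild-type replicates 1 and 2 alone, 29 of the same 30 collagens lay below 0, while 44.6% of all 13276 genes tested there did. The median log2 difference was -0.54 for fibrillar, -0.43 for basement membrane and -0.41 for other collagens, beside 0.033 over all genes. The mutant libraries lay below both wild-type libraries in 7 of 8 fibrillar, 1 of 6 basement membrane and 8 of 16 other collagens, against 18.2% of all genes (40.2% lay apart in either direction). None of these lower collagens passed by itself (lowest limma adjusted p = 0.0700, Col7a1). Before adjustment, limma put 9 of the 30 under 0.05 as lower. Of all 13276 genes, 1423 were under 0.05 as lower, and 20.2% in either direction. Col9a1 passed and rose; in the same fit 2.14% of all genes passed, 1.42% as rises and 0.716% as falls. This comparison was chosen because of the departure of wild-type replicates 3 and 4. With all 7 libraries and an added term for those 2, the differences are the same by construction and limma called 0 of 13392 genes, with Col9a1 at an adjusted p of 0.277.

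**Figure D2:**
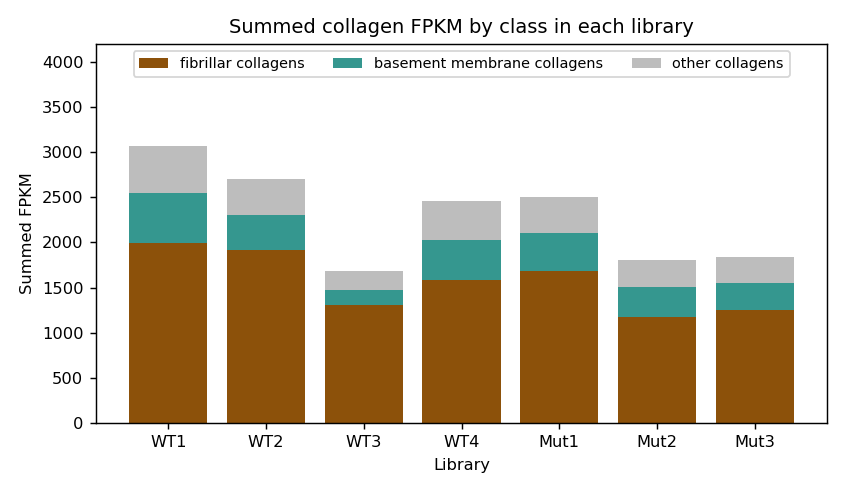
Summed FPKM of the collagens of each class (bar segments) in each library (x axis; WT, wild type; Mut, Socs2-Δs). The sum over all 44 genes runs from 1682 in wild-type replicate 3 to 3073 in wild-type replicate 1, and the 3 mutant libraries, from 1801 to 2504, lie within that range.

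**Figure D3:**
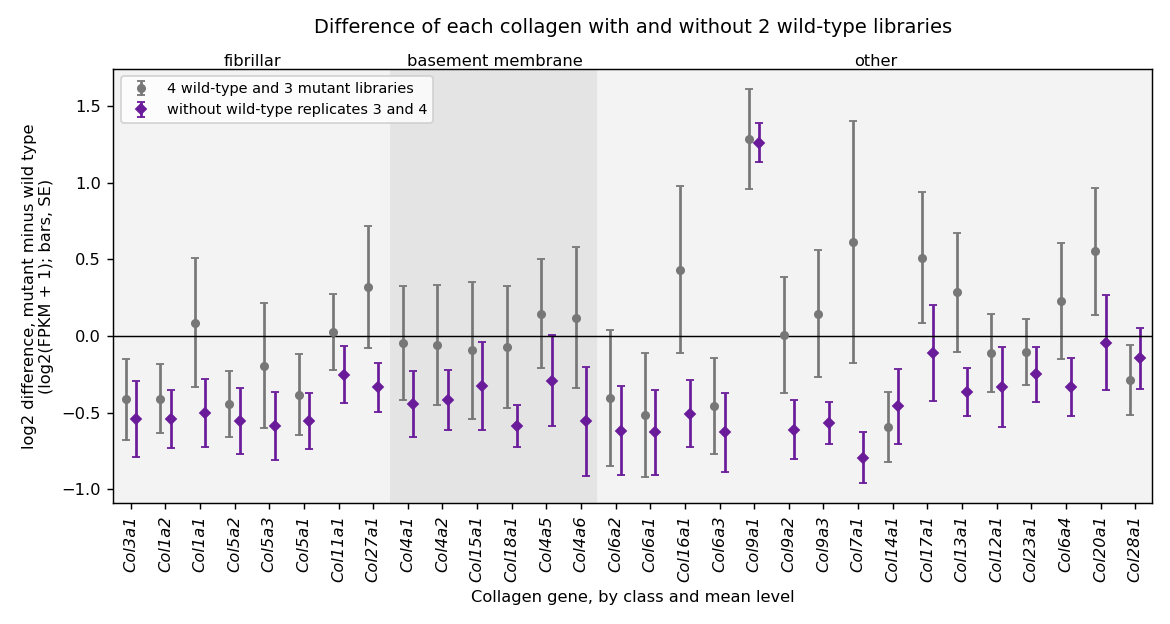
Log2 difference (mutant minus wild type, log2(FPKM + 1)) of each tested collagen with its SE; circles use all 7 libraries, diamonds leave out wild-type replicates 3 and 4. The diamonds lie below 0 for 29 of 30 genes, and Col9a1 is above 0 in both comparisons.

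Type I collagen is the main fibre-forming collagen and is assembled from the chains of Col1a1 and Col1a2. Col1a1 (Entrez 12842) measured 508, 474, 162 and 288 FPKM in wild-type replicates 1 to 4, and 434, 295 and 322 FPKM in mutant replicates 1 to 3. Col1a2 (Entrez 12843) measured 486, 486, 383 and 426 FPKM in wild type, and 383, 286 and 338 FPKM in mutant glands. For Col1a1 the mutant libraries lay inside the wild-type range, because wild-type replicates 3 and 4 were the lowest of the 7. For Col1a2 the groups met at 383 FPKM, which wild-type replicate 3 and mutant replicate 1 shared to 3 digits. The log2 difference was 0.086 for Col1a1 (SE 0.42, adjusted p = 0.916) and -0.41 for Col1a2 (SE 0.23, adjusted p = 0.347). Against wild-type replicates 1 and 2 the chains differed by nearly the same amount, -0.50 and -0.54 (adjusted p = 0.277 and 0.195).

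Both of wild-type replicates 3 and 4 lay below both of replicates 1 and 2 for 18 of 30 collagens, against 30.3% of all genes tested. The balance of the type I chains also separated wild-type replicates 3 and 4 from the other libraries. Col1a1 stood to Col1a2 as 1.05 and 0.975 for wild-type replicates 1 and 2, and as 1.13, 1.03 and 0.953 for the mutant libraries. In wild-type replicates 3 and 4 the ratio was 0.422 and 0.675. The sum of 10 fibroblast markers was 2624 and 4607 FPKM in these 2 libraries, and 2465 and 1599 FPKM in wild-type replicates 1 and 2. Dpt, Lum, Dcn, Pi16, Mfap5, Thy1 and Clec3b were higher in both of the 2 libraries than in replicates 1 and 2. Pdgfra, Fbln1 and Gsn were not. Gsn, the largest part of the sum in wild-type replicate 4, measured 512 and 2316 FPKM in replicates 3 and 4, and 1355 and 646 FPKM in replicates 1 and 2. In whole tissue, fewer cells of a type and less RNA per cell cannot be told apart. The summed liver and salivary gland markers were higher in the same libraries, as given above. The part of these markers and of the fibroblast markers in the ratio was not tested.

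Type III collagen, a homotrimer of the Col3a1 chain, forms thin fibres together with type I. Col3a1 (Entrez 12825) was the most abundant collagen, with 845, 812, 674 and 719 FPKM in wild type and 738, 492 and 509 FPKM in mutant glands. Mutant replicates 2 and 3 lay below every wild-type library, and mutant replicate 1 lay among them. The log2 difference was -0.41 (SE 0.26, adjusted p = 0.393), and -0.54 (adjusted p = 0.298) against wild-type replicates 1 and 2. Col3a1 stood to Col1a2 as 1.67 to 1.76 in the 4 wild-type libraries and as 1.5 to 1.92 in the mutant ones. The means of Col3a1, Col1a2 and Col1a1 over the 7 libraries were 684, 398 and 355 FPKM, and the ranges of the last 2 overlapped.

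Type V collagen sits inside type I fibres and limits their width. Col5a2 (Entrez 12832) measured 63.3, 55.1, 44.7 and 57.3 FPKM in wild type and 52.1, 37.9 and 32.2 FPKM in mutant glands. Only mutant replicate 1 reached the wild-type range, and the difference had the smallest p of the fibrillar chains without passing (log2 difference -0.44, SE 0.21, adjusted p = 0.302). Col5a1 averaged 35.7 ± 9.74 FPKM (SD, n = 4) in the wild type against 26.6 ± 5.35 FPKM (SD, n = 3) in the mutant, with a log2 difference of -0.38. Col5a3 averaged 35.4 ± 14.5 and 28.7 ± 7.45 FPKM, with a log2 difference of -0.20. Against wild-type replicates 1 and 2 these 3 chains differed by -0.55, -0.56 and -0.59, so that all chains of types I, III and V lay between -0.59 and -0.50. The minor fibrillar chains Col11a1 and Col27a1 had means of 2.58 and 2.21 FPKM and differed by 0.025 and 0.32 with 7 libraries, and by -0.25 and -0.34 against wild-type replicates 1 and 2.

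Type IV collagen is the scaffold of basement membranes, and Col4a1 and Col4a2 encode the chains of its common form. The genes lie head to head. In the RefSeq table of promoters (GRCm38.p6) Col4a2 starts on the forward strand at the first base, and Col4a1 on the reverse strand at the last base, of the stretch chr8:11312805-11312826, so these bases belong to both transcripts. It is shown, as the forward strand, because both chains start at this one site.
Col4a1 and Col4a2 starts: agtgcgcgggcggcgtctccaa
How strand entered the counting is not stated, so reads of the 2 genes over these 22 bases cannot be told apart.

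Col4a1 (Entrez 12826) measured 246, 181, 80.9 and 182 FPKM in wild type and 187, 150 and 133 FPKM in mutant glands. Col4a2 (Entrez 12827) measured 171, 123, 52.5 and 148 FPKM in wild type and 124, 107 and 96.1 FPKM in mutant glands. For both chains the mutant libraries lay between wild-type replicate 3, the lowest, and replicate 1, the highest. The log2 differences were -0.048 (SE 0.37) and -0.062 (SE 0.39), and -0.45 (SE 0.22) and -0.42 (SE 0.20) against wild-type replicates 1 and 2, without passing. The ratio of Col4a1 to Col4a2 ran from 1.23 to 1.54 in wild type and from 1.38 to 1.51 in mutant glands, and wild-type replicate 3, where both chains were lowest, had a ratio of 1.54. The type IV pair stood to the type I pair as 0.245 to 0.462 in wild type and 0.346 to 0.444 in mutant glands. Wild-type replicates 3 and 4 set the lower and upper end of that wild-type range. In wild-type replicates 1 and 2 the ratio was 0.420 and 0.318. Mutant replicate 2, at 0.444, lay above both, and mutant replicates 1 and 3 lay between them.

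The chains Col4a5 and Col4a6 occur together in a rarer type IV network. Col4a5 measured 12.8, 10.4, 7.31 and 4.6 FPKM in wild type and 14.4, 7.03 and 7.64 FPKM in mutant glands. Col4a6 measured 8.64, 5.98, 2.28 and 2.14 FPKM in wild type and 8.00, 3.59 and 3.20 FPKM in mutant glands. Mutant replicate 1 lay near wild-type replicate 1 for both genes and well above the other mutant libraries. The log2 differences were 0.15 (SE 0.35, adjusted p = 0.826) and 0.12 (SE 0.46, adjusted p = 0.894), the smallest p of the class. They were -0.29 and -0.56 against wild-type replicates 1 and 2. The remaining type IV chains, Col4a3 and Col4a4, had means of 0.135 and 0.160 FPKM and were not tested.

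Types XV and XVIII carry sugar chains and lie at basement membranes, type XVIII being the source of endostatin. Col15a1 (Entrez 12819) measured 75.8, 51.8, 23.3 and 87.0 FPKM in wild type and 67.4, 49.5 and 37.0 FPKM in mutant glands. The groups overlapped across most of their range (log2 difference -0.095, SE 0.44, adjusted p = 0.913, and -0.33 against wild-type replicates 1 and 2). Col18a1 averaged 21.6 ± 9.97 FPKM (SD, n = 4) in the wild type against 18.5 ± 1.07 FPKM (SD, n = 3) in the mutant. The 3 mutant values, 17.8 to 19.8 FPKM, lay close together and below 3 of the 4 wild-type values, and wild-type replicate 3 was far lower at 8.19 FPKM. Against wild-type replicates 1 and 2, Col18a1 was the one basement membrane chain without overlap (log2 difference -0.59, SE 0.14, adjusted p = 0.0912).

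Type VI collagen forms beaded filaments between cells and fibres and is abundant around fat cells. Col6a1 (Entrez 12833) measured 129, 79.9, 47.8 and 156 FPKM in wild type and 82.7, 65.1 and 51.7 FPKM in mutant glands. Col6a2 (Entrez 12834) measured 135, 83.8, 41.3 and 151 FPKM in wild type and 91.3, 65.7 and 54.4 FPKM in mutant glands. Both were highest in wild-type replicate 4 and lowest in replicate 3, with every mutant value between. The log2 differences were -0.51 (SE 0.40, adjusted p = 0.478) and -0.41 (SE 0.44, adjusted p = 0.599), and -0.46 (SE 0.31) for Col6a3. Against wild-type replicates 1 and 2 the 3 chains differed by -0.63, -0.62 and -0.63 with adjusted p from 0.246 to 0.306. The ratio of Col6a1 to Col6a2 was 0.953 to 1.16 in wild type and 0.906 to 0.991 in mutant glands. All 10 adipocyte markers were lower in the mutant, and their sum ran from 10825 to 23198 FPKM in wild type and from 3596 to 6840 in mutant glands. Within the wild type the sum followed these chains only in part. It was highest in replicate 4, as they were, but replicate 3, lowest for both chains, had a sum of 13575 FPKM, above the 10825 and 12821 FPKM of replicates 1 and 2. Fabp4, at 7497 FPKM in replicate 3, was the largest part of that sum. Single markers were split: Plin1, Cidec, Lep, Lipe and Pnpla2 were lowest of the wild type in replicate 3. Adipoq, Fabp4, Pparg, Cfd and Retn were not. The part of these markers in the difference was not tested.

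Type IX collagen decorates the surface of type II fibrils in cartilage and the eye and is a trimer of the chains of Col9a1, Col9a2 and Col9a3. Col9a1 (Entrez 12839) was the 1 collagen of 30 above 0 against wild-type replicates 1 and 2. It measured 14.1, 12.9, 23.0 and 7.22 FPKM in wild type and 31.7, 31.4 and 38.3 FPKM in mutant glands. All mutant values lay above all wild-type values, and the mean of 33.8 ± 3.90 FPKM (SD, n = 3) was 2.37 times that of 14.3 ± 6.51 (SD, n = 4). The recovered reads ran from 610 to 2025 in wild type and from 3028 to 3431 in mutant glands, so counting error was small beside the spread. The log2 difference was 1.28 (SE 0.33, adjusted p = 0.160) with all 7 libraries, and 1.26 (SE 0.13, adjusted p = 0.0211) against wild-type replicates 1 and 2.

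The remaining type IX chains were not higher in the mutant. Col9a2 measured 32.2, 27.5, 12 and 12 FPKM in wild type and 23.3, 15.2 and 19.6 FPKM in mutant glands. Col9a3 measured 26.9, 26.2, 9.90 and 8.65 FPKM in wild type and 19.5, 15.0 and 18.6 FPKM in mutant glands. Both were lower in wild-type replicates 3 and 4, and the mutant libraries lay between the wild-type pairs. The log2 differences were 0.0071 and 0.15 with 7 libraries, and -0.61 (SE 0.19, adjusted p = 0.157) and -0.57 (SE 0.14, adjusted p = 0.0984) against wild-type replicates 1 and 2. Col9a1 therefore stood to the mean of its partners as 0.477 and 0.480 for wild-type replicates 1 and 2, 2.09 and 0.700 for replicates 3 and 4, and 1.48, 2.09 and 2.01 for the mutant libraries. The ratio of Col9a2 to Col9a3 stayed between 1.01 and 1.38 in all 7. These ratios were computed after the values were seen.

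**Figure D4:**
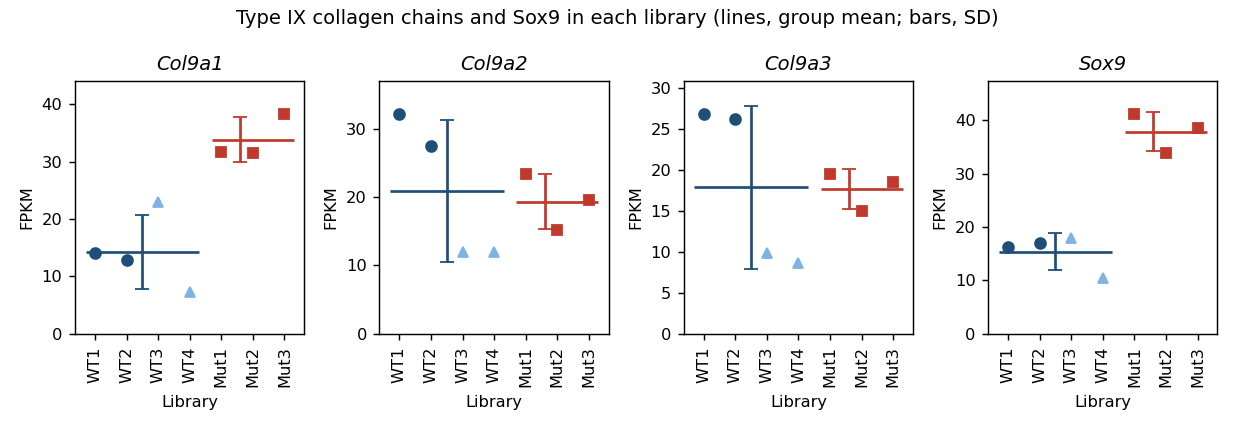
FPKM of the type IX chains and of Sox9 in each library (points, colours as in the plot of levels; lines, group mean; bars, SD). Col9a1 and Sox9 are higher in all 3 mutant libraries than in all 4 wild-type ones, while Col9a2 and Col9a3 of the mutant lie between the wild-type pairs.

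Sox9 is a transcription factor that activates type II and type IX collagen genes in cartilage and is also present in mammary epithelium. It measured 16.2, 17.0, 18.0 and 10.4 FPKM in wild type and 41.2, 33.9 and 38.6 FPKM in mutant glands, without overlap. The log2 difference was 1.27 (SE 0.21, adjusted p = 0.0973) with 7 libraries, and 1.14 (SE 0.12, adjusted p = 0.0211) against wild-type replicates 1 and 2, where it rose. It was the only one of 7 listed cartilage markers that reached a mean of 1 FPKM. The others, Acan, Comp, Hapln1, Matn1, Matn3 and Chad, had group means of at most 0.368 FPKM, and Acan, Hapln1, Matn1 and Matn3 were listed at 0 in at least 1 library. Col2a1, the type II chain of cartilage, measured 0.0419 to 0.0832 FPKM in all libraries. All 10 luminal epithelial markers were higher in the mutant, 4 of them without overlap, as were 12.5% of all genes. Their sum was 2735 to 22167 FPKM in wild type and 34251 to 48610 FPKM in mutant glands. As for Col9a1, it was highest in wild-type replicate 3 and lowest in replicate 4. The order of wild-type replicates 1 and 2 was opposite, with 6913 and 10537 FPKM for the sum and 14.1 and 12.9 FPKM for Col9a1. Most of that sum is the milk protein gene Csn2, and its part in the Col9a1 difference was not tested.

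RefSeq (GRCm38.p6) gives Col9a1 a pair of start sites 17593 bases apart, for a long and a short transcript, and the deposited values pool them. The 250 bases before each start and before that of Col9a2 are shown because Col9a1 and Col9a2 encode chains of one protein. Capitals mark matches on either strand to the SOX-type motif, searched as a pair of letters, each A or T, followed by CAAAG or CAATG. The forward strand is printed 5′ to 3′.
Col9a1 first start, chr1:24177360-24177609: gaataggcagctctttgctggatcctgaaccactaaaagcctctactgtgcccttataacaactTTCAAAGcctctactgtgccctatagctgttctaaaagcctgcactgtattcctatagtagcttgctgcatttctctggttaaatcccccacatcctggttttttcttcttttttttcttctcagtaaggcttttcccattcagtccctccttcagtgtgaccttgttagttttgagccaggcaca
Col9a1 second start, chr1:24194953-24195202: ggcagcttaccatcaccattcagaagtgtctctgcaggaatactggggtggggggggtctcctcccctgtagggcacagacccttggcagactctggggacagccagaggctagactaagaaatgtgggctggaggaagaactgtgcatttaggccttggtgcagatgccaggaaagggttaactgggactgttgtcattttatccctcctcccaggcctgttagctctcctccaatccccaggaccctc
Col9a2, chr4:121039316-121039565: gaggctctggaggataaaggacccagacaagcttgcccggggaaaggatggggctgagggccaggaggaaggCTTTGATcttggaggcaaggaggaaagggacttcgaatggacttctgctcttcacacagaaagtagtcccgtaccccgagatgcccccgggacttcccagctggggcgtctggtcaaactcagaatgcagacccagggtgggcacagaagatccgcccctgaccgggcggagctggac

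The motif occurred once before the first Col9a1 start, 0 times before the second and once before Col9a2. It occurred in 21.8% of all 32851 windows of this length in the table and in 8 of 38 collagen windows (35 genes matched), so a match is common. The STAT5-type motif TTCNNNGAA occurred in none of these 3 windows, in 2 of 38 collagen windows (Col28a1 and Col6a5) and in 7.02% of all windows. A match is a description of the letters only.

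**Figure D5:**
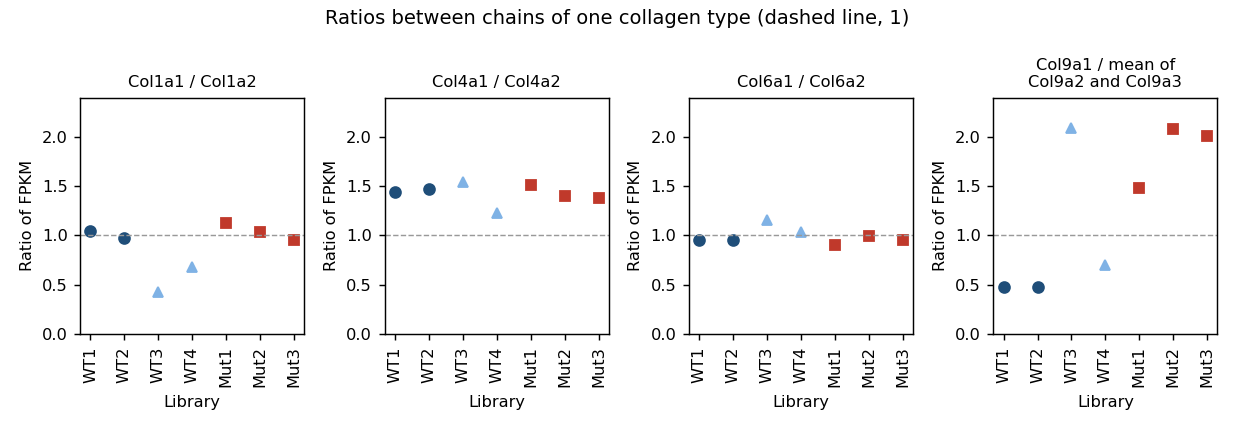
Ratio of FPKM between chains of one collagen type in each library (points; colours as in the plot of levels; dashed line, 1). The type I ratio is lowest in wild-type replicates 3 and 4 (0.422 and 0.675), the type IV and VI ratios stay within 1.23 to 1.54 and 0.906 to 1.16, and the type IX ratio is above 1 in the 3 mutant libraries and wild-type replicate 3.

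Of the 7 tested collagens that associate with fibrils, type IX included, 5 lay above 0 and 2 below 0 with all libraries. Col14a1 (Entrez 12818), a fibril-surface collagen of soft connective tissue, measured 14.1, 17.6, 21.7 and 17.0 FPKM in wild type and 15.7, 8.79 and 10.1 FPKM in mutant glands. Mutant replicates 2 and 3 lay below all wild-type values and replicate 1 within them (log2 difference -0.59, SE 0.23, adjusted p = 0.244, and -0.46 against wild-type replicates 1 and 2). Col16a1 (Entrez 107581) measured 67.1, 58.4, 15.0 and 17.8 FPKM in wild type and 56.1, 34 and 43.8 FPKM in mutant glands. Its wild-type libraries formed 2 separate pairs with the mutant libraries between them, and the log2 difference was 0.43 (SE 0.55) with 7 libraries and -0.51 (SE 0.22) against wild-type replicates 1 and 2. Neither passed.

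Type VII collagen forms the fibrils that anchor epithelial basement membranes to the stroma, and type XVII spans the membrane of basal epithelial cells. Col7a1 (Entrez 12836) measured 34.8, 27.5, 2.47 and 4.95 FPKM in wild type and 20.5, 16.2 and 15.8 FPKM in mutant glands. The difference depended on the controls: it was 0.61 (SE 0.79, adjusted p = 0.663) with 7 libraries and -0.80 (SE 0.16, adjusted p = 0.0700) against wild-type replicates 1 and 2, the lowest of the 30, without passing. Col17a1 averaged 7.82 ± 4.28 FPKM (SD, n = 4) in the wild type against 11 ± 4.51 FPKM (SD, n = 3) in the mutant, with log2 differences of 0.51 and -0.11 in the 2 comparisons. The sum of 8 myoepithelial markers ran from 522 FPKM in wild-type replicate 4 to 1002 in replicate 2, with the mutant libraries at 855 to 1036. Wild-type replicate 3, where Col7a1 was lowest, had a sum of 944 FPKM. Acta2 was the largest part of the sum in every library. With 7 libraries 4 of the 8 markers were lower in the mutant and 4 higher. The 6 tested collagens not yet given, Col6a4, Col12a1, Col13a1, Col20a1, Col23a1 and Col28a1, had means of 1.20 to 2.68 FPKM and log2 differences from -0.29 to 0.55, or from -0.37 to -0.045 against wild-type replicates 1 and 2, none of which passed.

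The 14 collagens under the level for testing, 3 fibrillar, 2 basement membrane and 9 others, had means of at most 0.810 FPKM. The members nearest that level were Col8a1 at 0.810 FPKM below it, and Col28a1 at 1.20 FPKM above it. Col8a1, a short-chain network collagen, averaged 1.04 ± 0.521 FPKM (SD, n = 4) in the wild type against 0.507 ± 0.210 FPKM (SD, n = 3) in the mutant. Col11a2 averaged 0.287 ± 0.263 and 0.963 ± 0.438 FPKM. For Col11a2, wild-type replicates 3 and 4 were the lowest, at 0.101 and 0.035 FPKM on 12 and 4 recovered reads. The groups overlapped for Col8a1 and for Col11a2. Col26a1 measured 0.191 to 0.334 FPKM in wild type and 0.171 to 0.191 in mutant glands, on 10 to 23 recovered reads. Col10a1, the growth plate collagen, was listed at 0 in wild-type replicate 3 and mutant replicate 3 and had at most 7 reads elsewhere. The rest were Col2a1, Col4a3, Col4a4, Col6a5, Col6a6, Col8a2, Col19a1, Col22a1, Col24a1 and Col25a1.

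The enzymes and chaperones that make collagen were read from the same fit. Of 12 genes of prolyl and lysyl hydroxylation, 11 were lower, with a median log2 difference of -0.41. With wild-type replicates 1 and 2 as controls, 8 of 11 were lower, with a median of -0.49. P4ha1, a prolyl hydroxylase subunit, measured 8.65, 8.67, 10.5 and 10.9 FPKM in wild type and 6.32, 6.25 and 5.00 FPKM in mutant glands, without overlap (log2 difference -0.64, adjusted p = 0.158, and -0.50 against wild-type replicates 1 and 2). P4ha3 averaged 1.47 ± 0.247 and 0.498 ± 0.148 FPKM (-0.72, adjusted p = 0.160) and was under the level for testing without wild-type replicates 3 and 4. The 7 genes of folding, glycosylation and export had a median of 0.071 with 3 lower, which turned to -0.054 with 4 lower against wild-type replicates 1 and 2. Serpinh1, the collagen chaperone HSP47, measured 221, 204, 279 and 327 FPKM in wild type and 165, 125 and 139 FPKM in mutant glands (-0.83, adjusted p = 0.179), and Fkbp14, a prolyl isomerase, differed by -0.75 (adjusted p = 0.195). For both the groups did not overlap. Their differences from wild-type replicates 1 and 2 were -0.57 and -0.39. No tested gene of these or the following lists of collagen partners passed, with 7 libraries or against wild-type replicates 1 and 2, against the 0.0448% and 2.14% of all genes given above.

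Propeptide cleavage had 5 of 6 genes lower (median -0.47), among them the procollagen protease Adamts2 (-0.78, adjusted p = 0.221) and the enhancer Pcolce2 (-1.39, adjusted p = 0.225). These were -0.74 and -0.76 against wild-type replicates 1 and 2. All 4 tested lysyl oxidases, which crosslink collagen, were lower (median -0.70). Loxl1 measured 40.6, 43.6, 38.7 and 45.4 FPKM in wild type and 33.6, 24.3 and 24.6 FPKM in mutant glands (-0.61, adjusted p = 0.174), and Loxl2 differed by -0.79 (adjusted p = 0.193). Loxl1 and Loxl2 differed from wild-type replicates 1 and 2 by -0.61 and -0.51. Of the 13 fibril-binding proteoglycans and partners, 12 were lower (median -0.88), with Dpt, dermatopontin, at 408 ± 229 and 119 ± 14.0 FPKM (-1.61, adjusted p = 0.159) and Ogn, osteoglycin, at 89.5 ± 56.0 and 20.6 ± 5.18 FPKM (-1.83, adjusted p = 0.187). Dpt differed by -1.05 and Ogn by -0.99 against wild-type replicates 1 and 2. The medians of the cleavage, crosslinking and proteoglycan lists against wild-type replicates 1 and 2 were -0.57, -0.56 and -0.63. The fibroblast markers, which share Dpt, Lum and Dcn with the last list, were lower in 10 of 10 genes, with sums of 1599 to 4607 FPKM in wild type and 1003 to 1182 FPKM in mutant glands. Their median log2 difference was -1.08. Against wild-type replicates 1 and 2 it was -0.65, again with 10 of 10 lower.

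Of the collagen receptors, Ddr1, a receptor kinase of epithelium, averaged 17.7 ± 6.36 FPKM (SD, n = 4) in the wild type against 28.9 ± 3.14 FPKM (SD, n = 3) in the mutant. Ddr2, its mesenchymal relative, averaged 14.2 ± 4.82 and 6.67 ± 1.04 FPKM. The groups did not overlap for either gene, in opposite directions (log2 differences 0.74 and -0.94, adjusted p = 0.237 and 0.174). For Ddr1 and Ddr2 they were 0.30 and -0.54 against wild-type replicates 1 and 2. The 9 tested receptors had a median of -0.17, and of -0.13 against those controls. The sign of the 15 basement membrane partners turned with the controls: with 7 libraries 7 were lower and 8 higher (median 0.11), and against wild-type replicates 1 and 2, 14 were lower and 1 higher (median -0.21). With 7 libraries the laminin chain Lamb3 of epithelial basement membrane was higher (1.04, adjusted p = 0.179) and Nid1, the linker nidogen, lower (-0.85, adjusted p = 0.210), both without overlap. Lamb3 differed by 0.67 and Nid1 by -0.62 against wild-type replicates 1 and 2. The breakdown list had 7 of 8 genes lower (median -0.57), with the inhibitor Timp3 (-0.89, adjusted p = 0.159) and the stromal protease Fap (-0.63, adjusted p = 0.167) first by p. Without wild-type replicates 3 and 4, 7 of 8 were lower (median -0.45), with Timp3 at -0.77 and Fap at -0.46.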

How the data were processed

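Of 16 samples, the 7 RNA libraries were used; those from ChIP-seq or DNase-seq, 9 in all, are not analysed here. Poly(A) RNA was turned, per the labels' protocols, into cDNA libraries with an Illumina TruSeq kit. CASAVA, Bowtie2, STAR, DESeq2 and the build mm9 are named, without roles, in the submitters' processing notes. For annotation and counting, the tools and settings were not given in the sources used here. FPKM per gene is what the authors deposited. All 21044 rows above 0 were solved to whole reads (tolerance 0.02 of a read), a gene's reads being known only up to a factor shared by its libraries, which gave the depths.

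limma 3.58.1 in R 4.3.3 (empirical Bayes with a trend, no covariate) was run on log2(FPKM + 1) of the 13392 genes averaging 1 FPKM or more, with Benjamini-Hochberg adjustment over all of them and a threshold of 0.05. This scale understates changes of low genes. Tested on simulated data for this comparison over 13392 genes, it recovered 35% of log2 changes of 1 and 86% of log2 changes of 2, and called 5 unchanged genes. The simulation gave each gene independent noise of 1 SD in all 7 libraries. It did not hold the shared departure of wild-type replicates 3 and 4, so these rates need not apply to the real libraries. The collagens named are, per class, the 3 highest by mean, the 2 smallest by p and the 2 largest by difference. For partner lists they are the 2 smallest by p. Others, among them Col9a2, Col9a3, Col18a1, Sox9 and the low members, were chosen after their values were seen. Members and lists were chosen with earlier results of these data known, and lists are described without a test. Alternatives were pseudocounts of 0.1 and 0.5, other filters and scalings, array weights, a replicate block and each library left out. Added after seeing the data were wild-type replicates 3 and 4 left out or given a term, and voom on recovered reads.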

Additional observations from a re-analysis of the deposited data

Results flagged for a closer look

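A wild-type library lay far from the other 3 in 2 of 44 quantities examined (30 collagens, their sums and chain ratios); chance alone gives about 1 in 20. The ratio of Col9a1 to the mean of Col9a2 and Col9a3 was 2.09 in wild-type replicate 3, against 0.477 to 0.700 in the other wild-type libraries. Col23a1, a membrane-spanning collagen, measured 0.804 FPKM in wild-type replicate 3, against 1.53 to 1.64 in the other wild-type libraries. Mutant replicate 3, at 0.858 FPKM, lay close to it.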

How the results depend on the processing

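Of 18 alternatives, Col9a1 stayed above 0 in 18, with log2 differences of 1.02 to 1.53 and limma adjusted p of 0.00293 to 0.467. Array weights, which gave wild-type replicates 3 and 4 the least weight, called 1371 of all genes (10.2%) and 1 collagen lower (Col1a2, -0.62, adjusted p = 0.0416) and 1 higher (Col9a1, 1.23, adjusted p = 0.00293), with a median of the other collagens of -0.43. Leaving out wild-type replicates 3 and 4 called 1 higher collagen, Col9a1, and 0 lower, with that median at -0.41, as it is with a term for those libraries, where 0 were called. Leaving out any 1 library called 0 collagens in either direction. It moved the class medians from -0.48 to -0.15 (fibrillar), from -0.40 to 0.16 (basement membrane) and from -0.12 to 0.32 (other). Quantile normalization gave class medians of -0.10, 0.062 and 0.012, and no filter on low values, which adds collagens near 0, gave -0.010, -0.052 and -0.012.

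Many signs rest on wild-type replicates 3 and 4. Log2 differences with the opposite sign were, under array weights, Col11a1 -0.26, Col13a1 -0.38, Col4a5 -0.33, Col7a1 -0.58, Col9a2 -0.63, Col9a3 -0.56, Col1a1 -0.50, Col6a4 -0.14, Col4a6 -0.50, Col16a1 -0.50 and Col27a1 -0.35. Without wild-type replicates 3 and 4, or with a term for them, they were Col11a1 -0.25, Col13a1 -0.37, Col17a1 -0.11, Col4a5 -0.29, Col7a1 -0.80, Col9a2 -0.61, Col9a3 -0.57, Col1a1 -0.50, Col6a4 -0.33, Col20a1 -0.045, Col4a6 -0.56, Col16a1 -0.51 and Col27a1 -0.34. Under quantile normalization they were Col11a1 -0.034, Col15a1 0.027, Col4a1 0.21, Col4a2 0.19 and Col9a2 -0.043. Leaving out 1 library at a time, the differences that changed sign ran over Col11a1 -0.15 to 0.12, Col12a1 -0.31 to 0.065, Col15a1 -0.48 to 0.14, Col18a1 -0.46 to 0.16, Col4a1 -0.37 to 0.16, Col4a2 -0.43 to 0.14, Col4a5 -0.15 to 0.34, Col9a2 -0.20 to 0.25, Col9a3 -0.12 to 0.39, Col1a1 -0.25 to 0.30, Col6a4 -0.061 to 0.44, Col4a6 -0.23 to 0.42 and Col23a1 -0.24 to 0.012. The cause was not tested.

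With the replicate number as a block they were Col11a1 -0.15, Col15a1 0.14, Col4a1 0.013, Col4a2 0.066, Col4a5 -0.095, Col9a2 -0.20, Col9a3 -0.12 and Col4a6 -0.12, and Col9a1 was 1.02 (adjusted p = 0.196), with 0 collagens called. The numbers are not known to pair the samples: deviations of same-numbered libraries correlated at 0.35, -0.10 and 0.28, and mutant replicate 2 correlated best with wild-type replicate 4 (0.34). Collagens near 1 FPKM rest on as few as 13 reads in a library, so small differences there were not detectable.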

Other observations

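Within the wild type, collagens differed between replicates 3 and 4 and replicates 1 and 2. The mean of replicates 3 and 4 was under 50% of that of replicates 1 and 2 for 11 of the 30 tested collagens, against 11.4% of all genes tested. By class the count was 2 of 8 fibrillar, 1 of 6 basement membrane and 8 of 16 other collagens. The epithelial anchoring chain Col7a1 stood at 0.119 of its level in replicates 1 and 2, Col20a1 at 0.0917, Col6a4 at 0.196, Col27a1 at 0.225 and Col16a1 at 0.261. Other collagens were near or above their level there, Col6a1 at 0.973, Col9a1 at 1.12, Col14a1 at 1.22 and Col28a1 at 1.45. Wild-type replicate 3 was the lowest of all 7 libraries for 15 collagens and replicate 4 for 8. The labels give no batch, and the cause was not tested. These genes were chosen after their values were seen.

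Among the mutant libraries, replicate 1 had the highest value for 27 of the 30 collagens, and its summed collagen FPKM was 2504, against 1801 and 1835 in replicates 2 and 3.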
